A study of Mus musculus with 4 samples.

Results

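Cells with high MHC class II transcripts were examined in single-cell RNA sequencing of CD11b-positive mouse brain cells. They were picked by their own counts. A cell was a member when H2-Aa, H2-Ab1, H2-Eb1 and Cd74 together gave at least 150 UMIs (unique molecules) per 10000, fewer than 3 of Mrc1, Cbr2, F13a1, Cd163 and Lyve1 were detected, and at most 1 of Sall1, Siglech, P2ry12 and Tmem119 was. This gave 103 of 8018 analysed cells, a share of 1.28% (exact 95% interval 1.05 to 1.56). The injured Il6 knockout library, labelled -/-, held 25 members and the injured wild-type library, labelled +/+, held 67. The knockout sham library held 3 and the wild-type sham library 8. The injury was cerebrovascular injury, made with intravenous microspheres and pulsed ultrasound through thinned skull, and cells were taken on day 6 from a 4 mm punch of brain. The mice were 8 to 12 weeks old when operated on. The sample characteristic calls the controls sham-operated and the extraction text calls them uninjured. Both mild and severe forms of the injury are described in the treatment text, which does not tell which one these mice had, and the strain and the targeted Il6 exon are not given in the sources used here. Counts from 3′ tags do not check the genotype, so those libraries are called knockout-labelled. Each group was 1 mouse and 1 library, so no test between groups was possible, and every interval below covers counting error only.

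MHC class II molecules show peptides from engulfed protein to CD4 T cells. Conventional dendritic cells carry them constantly, depend on the receptor Flt3, and leave the tissue for lymph nodes with the receptor Ccr7. In the healthy brain they sit mainly in the meninges and choroid plexus and are rare in the parenchyma, whereas macrophages at the borders and in lesions can also carry class II. The class II genes share a promoter architecture in which the Y box, an inverted CCAAT sequence bound by NF-Y, lies close to the start of the gene, and the co-activator Ciita acts through the factors bound there.

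The promoter stretches below are shown because class II transcripts define the cells and because the accessory genes H2-DM and H2-O, which the selection did not use, were high in them as well. The motif TGATTGG was searched on both strands in windows of 300 bases from RefSeq (GRCm38.p6), and 2559 of 32817 such windows, 7.80%, held it. Of 8 class II genes looked up, 7 were in the table and 6 held the motif. H2-DMa held none in either of its windows, and H2-Ab1 is named only. Capitals mark the motif, and each stretch of 67 bases reads 5′ to 3′ on the strand of its gene.
H2-Aa: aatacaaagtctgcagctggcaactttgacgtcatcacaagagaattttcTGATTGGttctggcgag
H2-Eb1: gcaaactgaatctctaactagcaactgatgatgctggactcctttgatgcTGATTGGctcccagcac
H2-DMb1: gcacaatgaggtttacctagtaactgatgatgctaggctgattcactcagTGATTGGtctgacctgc
H2-DMb2: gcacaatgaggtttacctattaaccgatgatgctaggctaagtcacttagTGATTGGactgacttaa
H2-Oa: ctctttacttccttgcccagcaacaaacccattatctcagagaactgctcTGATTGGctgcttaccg
H2-Ob: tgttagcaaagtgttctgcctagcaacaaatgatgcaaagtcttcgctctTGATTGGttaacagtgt
H2-Aa lies on the minus strand at chr17:34287857-34287923, and the others lie on the plus strand. They are H2-Eb1 at chr17:34305756-34305822, H2-DMb1 at chr17:34153078-34153144, H2-DMb2 at chr17:34145107-34145173, H2-Oa at chr17:34092284-34092350 and H2-Ob at chr17:34238796-34238862. The motif began 50 bases before the annotated start of H2-Aa, 61 before that of H2-Eb1, 63 for H2-DMb1, 92 for H2-DMb2, 45 for H2-Oa and 59 for H2-Ob. A match describes these letters and no binding was measured.

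The 4 libraries held 16040 barcodes and between 15222380 and 40336067 UMIs each, and 8018 barcodes passed the cell filter. Of these, 30 barcodes occurred in more than 1 library, and 0 of the 103 member barcodes did. Members were of middling depth, with a median of 6533 UMIs in the injured knockout-labelled library, 8362 in the injured wild type, 9841 in the knockout-labelled sham and 8160 in the wild-type sham library. For orientation, the other cells were put into 3 classes. They are 246 cells with at least 3 of the border macrophage genes, 6364 other cells with at least 2 of the microglia genes, and 1305 remaining cells under the class II threshold. As a gauge of free RNA, 270 of the remaining cells with at least 4 of 7 endothelial markers were used, with a median of 4758.5 UMIs.

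The class II level left few cells near the threshold. It ranged from 175 to 1336 UMIs per 10000 among members. The 3 members nearest the threshold had 175, 196 and 208 per 10000, and the 3 nearest cells outside it, which met the other steps, had 139, 142 and 143. Only 2 members lay between 150 and 200. The endothelial cells had a median of 0 and a maximum of 58.9 per 10000. Members had 13481 CPM (UMIs of the gene per 1000000 summed UMIs) of H2-Aa, against 601 CPM in border macrophage-rule cells, 77.5 CPM in microglia-rule cells and 44.6 CPM in the remaining cells. For the invariant chain Cd74 the levels were 20376, 1301, 176 and 132 CPM in the same order. These levels follow from the selection.

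The label of dendritic or monocyte-like cells held for part of the members only. C1qa, C1qb and C1qc, the complement genes of macrophages and microglia, were used to split them. C1q was over 20 per 10000 in 41 members (39.8%, interval 30.3 to 49.9), with a median of 135 and a lowest value of 22.4. The other 62 had a median of 2.64 and a highest value of 13.1, and the endothelial cells had a median of 3.91 and passed 20 in 11.1% of cells. Cd209a, a lectin of conventional dendritic cells of type 2 (cDC2), was found in 44 members and Flt3 in 34. At least 1 of them was found in 51 members, of which 2 were C1q-high. Neither gene was found in any of the 270 endothelial cells, which allows a share of up to 1.11%. Across classes Cd209a stood at 632 CPM in members, 41.5 CPM in border macrophage-rule cells, 2.20 CPM in microglia-rule cells and 0.182 CPM in the remaining cells. The cut at 20 was set after the values were seen, and 7 members lay between 10 and 40 per 10000.

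**Figure D1:**
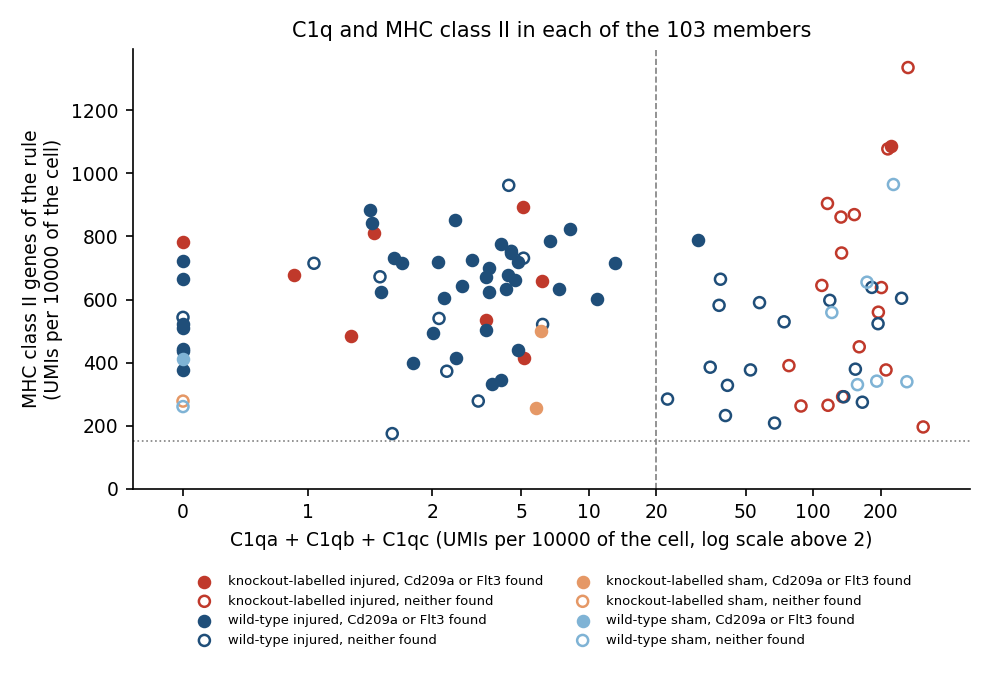
Each point is 1 of the 103 members, placed by its C1q UMIs (x axis, per 10000, log scale above 2) and by its class II UMIs (y axis, per 10000). Colours mark the library, filled points have a UMI of Cd209a or Flt3, the dashed line is C1q at 20 and the dotted line the class II threshold of 150. The filled points lie left of the dashed line apart from 2.

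Markers of lymphocytes, neutrophils and endothelium were sparse in the members, apart from Ighm. Itgam, which encodes the CD11b used for the selection, was found in 43 of them. The B cell genes Cd79a, Pax5 and Igkc had 0 UMIs, although Ighm, an immunoglobulin heavy chain gene, was found in 66 members at 187 CPM, against 176 CPM in border macrophage-rule and 173 CPM in microglia-rule cells. The T cell genes Cd3e and Trbc2 and the natural killer gene Nkg7 had 0 UMIs, and S100a8 and S100a9 of neutrophils had 1 each. Cldn5 of endothelium was found in 1 cell. Monocyte genes were mixed, because Ccr2 was found in 68 members, Ms4a4c in 65 and Plac8 in 24, whereas Ly6c2 was found in 8, Chil3 in 3 and Vcan in 1. Of the 10 monocyte list genes, 5 were at least 2-fold higher in members than in all other cells and 0 lower. Over all 13872 genes tested, 2.39% were higher and 3.5% lower. Of the 10 plasmacytoid dendritic cell genes, Ly6d, Klk1 and Cox6a2 had 0 UMIs and the other 7 had some, with Tcf4 at 121 CPM. Of 7 tested against all other cells, 0 were at least 2-fold higher and 2 lower. All 11 genes of the type 1 conventional dendritic cell (cDC1) list had UMIs, and 52 members had at least 3 of them. That count does not mark cDC1 cells, since it includes 11 of 18 and 11 of 23 cells of the macrophage-like clusters described below. Of 9 cDC1 list genes tested against all other cells, 3 were at least 2-fold higher and 1 lower. Xcr1 and Clec9a of this list were rare, with Xcr1 in 3 cells, Clec9a in 4 and both in 1. That cell, from the injured wild-type library, had 13 UMIs of Xcr1, 2 of Clec9a, 16 of the integrin gene Itgae and 36 of the transcription factor gene Irf8.

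Clustering of the members alone gave 7 clusters, of which 4 could be named from the marker lists. Genes that define a cluster describe it and are no finding, and the sizes per library are descriptions too, since these genes also differ between libraries. The names of the dendritic clusters depended on the resolution, and at 0.5 none was cDC2-like or migratory. The largest cluster, of 25 cells, was cDC2-like. It was led by the scaffold gene Ahnak, Cd209a, the repressor Etv3, the NF-kB inhibitor Tnip3 and Ear2, the last found in 9 of 25 cells. Next came the T cell co-stimulator Tnfsf9 (4-1BB ligand), the adhesion molecules Icam1 and Cd44 and the prostaglandin synthase Ptgs2. Cd209a was found in 22 of its 25 cells, at 1592 CPM against 276 CPM in the other members. The cDC2 list summed to 4176 CPM here, against 2089 and 2545 CPM in the unnamed Ifitm1 and Cxcl10 clusters below. Clec10a of that list went the other way, at 354 CPM against 386 and 722 CPM, so cDC2 genes were not particular to this cluster. The injured knockout-labelled library gave 7 of the cDC2-like cells, the injured wild type 13, the knockout-labelled sham library 3 and the wild-type sham library 2. All 5 sham members that were not C1q-high therefore fell here. Of these, 3 had Cd209a, with 30, 2 and 40 UMIs, and the other 2 had none. The 2 cells without it, singled out after their values were seen, had 44 and 7 UMIs of Plac8, and 1 and 12 of Ace, a gene of patrolling monocytes.

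Ccr7 marked 4 migratory mature dendritic-cell-like cells, all from the injured wild-type library. They had 39, 16, 18 and 22 UMIs of Ccr7, which together made 3473 CPM against 42.1 CPM in the other members. Fscn1, an actin-bundling protein of mature dendritic cells, was found in all 4, as was Il4i1, an amino acid oxidase. The chemokine gene Ccl22 was found in 3 of the 4 and Flt3 in 3, while Cd209a was found in 0. Ccr2, the receptor for Ccl2, was at 0 UMIs in these 4 cells and was found in 68 of the other 99 members. In the whole class Ccr7 was found in 10 members.

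A further 3 clusters, in which Cd209a and Flt3 were also found, were left unnamed, because their leading genes held fewer than 2 markers of a class or markers of several. The first, of 19 cells, was led by the interferon-inducible membrane genes Ifitm1 and Ifitm6, the cDC1 list gene Ppt1, the class II modulator H2-Oa, Gpr171, the lectin receptor Klrd1 and the monocyte list gene Plac8. It had Flt3 in 10 and Cd209a in 11 of its cells, and 18 of its 19 cells were from the injured wild-type library. The second, of 10 cells, was led by Cxcl10, a chemokine for activated T cells, and by the antiviral genes Rsad2, Ifit1, Isg15, Ifit3 and Irf7. It had Cd209a in 8 and Flt3 in 5 of its 10 cells, and all 10 were from the injured wild-type library. The third was 4 cycling cells led by Ube2c, Stmn1, Birc5 and Top2a, 1 from the injured knockout-labelled and 3 from the injured wild-type library, with Cd209a in 3 of the 4. A cluster that is mostly 1 library may be that library and not a type.

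The remaining 41 cells were macrophage-like, in a pair of clusters, and 39 of them were C1q-high. In the first, of 18 cells, the monocyte-attracting chemokine genes Ccl7, Ccl12 and Ccl2 led, with Ccl3, Ccl4 and Cxcl2, the platelet factor gene Pf4 and C1qa. Ccl4 had 8645 CPM there against 374 CPM in the other members. The injured knockout-labelled library gave 11 of the 18, the injured wild type 4 and the wild-type sham library 3. In the second, of 23 cells, the matrix protein gene Spp1 led, followed by the protease gene Ctsd, the lipase gene Lpl, Apoc2, the lysozyme gene Lyz2, the lipid carrier gene Apoe and the receptor gene Trem2. The injured knockout-labelled library gave 5 of the 23, the injured wild type 15 and the wild-type sham library 3. Cd209a was found in 0 cells of either cluster and Flt3 in 1. Border genes remained in them, with Mrc1 at 422 and 34.4 CPM, against 1905 CPM in border macrophage-rule cells.

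**Figure D2:**
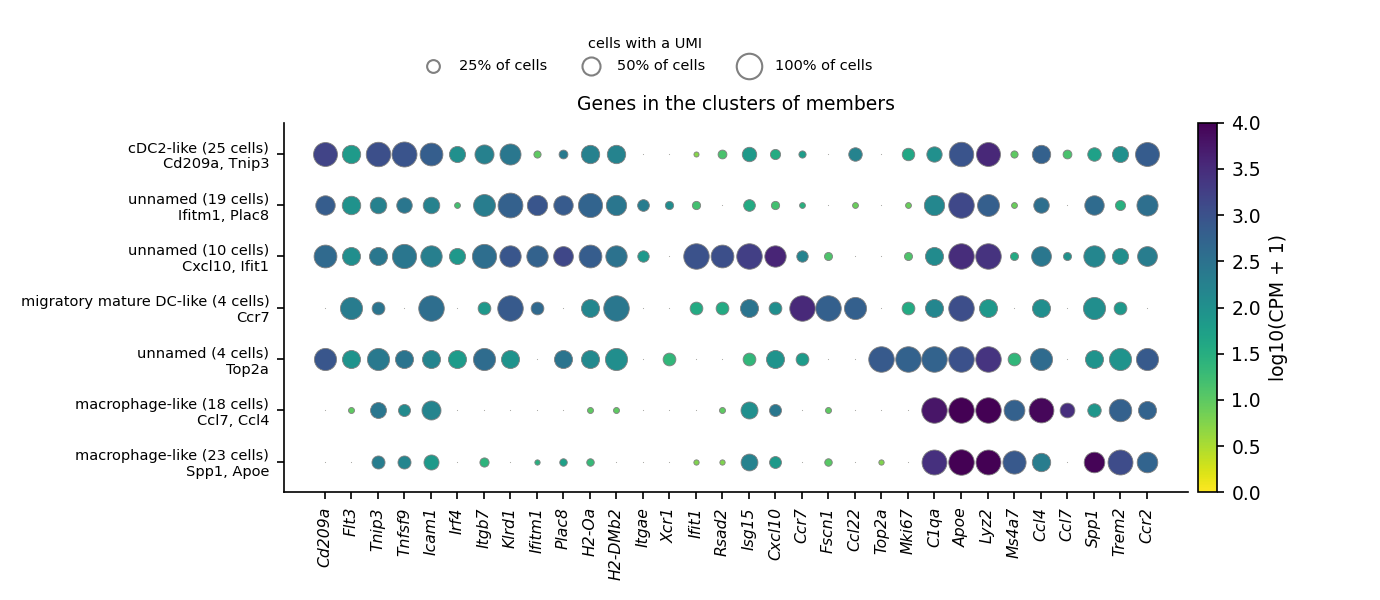
Each row is a cluster of members with its number of cells and leading genes, and each column a gene. Dot size is the share of cells with a UMI and colour the level as log10(CPM + 1). Cd209a and Flt3 fill the upper 5 rows apart from the Ccr7 row, which lacks Cd209a, while C1qa, Lyz2 and Ms4a7 are strongest in the lower pair of rows.

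Set against all other analysed cells, members had more of the class II processing and adhesion transcripts and less of most lipid and lesion macrophage genes. At least 2-fold higher were 332 of 13872 genes (2.39%), and 486 (3.5%) were at least 2-fold lower, with 20 CPM added to both sides. The members were chosen from these same counts, so this is a description. The leading genes after Cd209a (28.4-fold) were the calcium-binding S100a4 (24.0-fold, 902 against 18.4 CPM), Tnip3 (20.1-fold), Ccr2 (18.8-fold, 517 against 8.56 CPM), the protease gene Napsa (16.4-fold), the cytohesin regulator Cytip (15.8-fold) and Plbd1. Also among the 20 leading genes were S100a6, S100a10, S100a11, Crip1, Lsp1, the signalling adaptor Traf1, Klrd1, Ifitm2, Slamf7, Ms4a4c, Stap1 and the lectin genes Clec10a and Mgl2. Klrd1 was found in 48 members, and 0 of these were in the macrophage-like clusters. Clec10a and Mgl2 had 269 and 229 CPM in members, against 365 and 295 CPM in border macrophage-rule cells.

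Of 12 class II presentation genes outside the rule, 7 were at least 2-fold higher in members than in the other cells and 1 was lower, with a median log2 ratio of 1.62 against -0.09 over all genes tested. The peptide exchange subunits H2-DMa (885 CPM), H2-DMb1 (764 CPM) and H2-DMb2 (133 CPM), their modulators H2-Oa (222 CPM) and H2-Ob (86.2 CPM), Ciita (122 CPM) and the reductase Ifi30 (1130 CPM) were higher. The legumain gene Lgmn was lower, at 590 CPM. The accessory genes differed within the class. H2-DMb2 had 269, 306 and 256 CPM in the Ifitm1, the Cxcl10 and the Ccr7 cluster, and 8.79 and 0 CPM in the pair of macrophage-like clusters. H2-Oa had 531 and 685 CPM in the Ifitm1 and the Cxcl10 cluster and 8.79 and 19.7 CPM in the macrophage-like ones. H2-DMa spanned less, at 871 and 629 CPM in the macrophage-like clusters and 920 CPM in the cDC2-like cluster.

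Signals to T cells were higher in members for some genes only, and growth factor receptors went both ways. Of 14 co-stimulation and cytokine genes tested, 4 were at least 2-fold higher in members than in all other cells and 0 lower. These were Tnfsf9 (383 CPM), Il1b (3330 CPM), Cd40 (39.5 CPM) and Cd80 (41.9 CPM). Tnfsf9 peaked at 898 CPM in the cDC2-like cluster, Cd40 and Cd80 at 146 and 183 CPM in the 4 Ccr7 cells, and Cd86 at 489 CPM in the Cxcl10 cluster. Il12a had 0 UMIs, and Il12b was found in 2 members. Against border macrophage-rule cells alone, 3 of 12 tested genes of this list were higher and 4 lower (median log2 0.06), where 4.27% of 6446 genes were higher and 9.01% lower. For the class II presentation genes that comparison gave 7 of 11 higher and 1 lower (median log2 2.06). Of 9 growth factor receptor genes, Flt3 was higher (57.5 CPM) and Csf1r, which macrophages need, lower (325 CPM against 1963 CPM in microglia-rule cells), as were Csf3r and Il6st.

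Among chemokine receptors, 4 of 8 tested were higher in members, namely Ccr1, Ccr2, Ccr7 and Cxcr4, and 2 were lower, Cx3cr1 and S1pr1. The microglia step of the rule bears on Cx3cr1. Of the integrins and adhesion genes, 6 of 10 were higher, with Itgb7 at 148 CPM and Itga4 at 156 CPM, whose products pair to a receptor for adhesion molecules of vessel walls, and Itgam was lower at 108 CPM against 415 CPM in microglia-rule cells. Itgb7 had 0 UMIs in the Ccl7-led macrophage-like cluster and was found in 9 of 10 cells of the Cxcl10 cluster. Of 16 dendritic cell transcription factor genes, Irf4, Nfil3 and Runx3 were higher and 0 lower, while the conventional dendritic cell factor gene Zbtb46 was found in 11 members only. Of 12 lipid and lesion macrophage genes 9 were lower, and the galectin gene Lgals3 was higher. This list differed within the class, with a sum of 40910 and 69586 CPM in the macrophage-like clusters and 3004 to 6580 CPM in the other clusters. Apoe was at 46094 CPM in the Spp1-led cluster, above the 33150 CPM of all other analysed cells.

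Members made up more of the injured libraries than of the sham libraries, and more of the injured wild type than of the injured knockout-labelled library. They were 0.948% (0.614 to 1.40) of analysed cells in the injured knockout-labelled, 2.24% (1.74 to 2.83) in the injured wild-type, 0.216% (0.0445 to 0.629) in the knockout-labelled sham and 0.806% (0.349 to 1.58) in the wild-type sham library. Injured over sham gave a ratio of 4.40 (1.34 to 22.8) for the knockout-labelled pair and 2.77 (1.33 to 6.69) for the wild type. Knockout-labelled over wild type gave 0.424 (0.256 to 0.680) after injury. With the border and microglia steps of the rule left out, these ratios were 2.22 (1.09 to 4.95), 1.60 (0.939 to 2.87) and 0.582 (0.391 to 0.854). These shares depend on how many other cells the CD11b selection kept. Relative to cells outside the microglia rule the members were 5.88% of the injured knockout-labelled and 8.58% of the injured wild-type library, a ratio of 0.686 (0.415 to 1.10), whose interval includes 1.

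The members low in C1q were fewer in the injured knockout-labelled library. They were 8 cells, or 0.303% (0.131 to 0.597), of the injured knockout-labelled library and 49 cells, or 1.64% (1.21 to 2.16), of the injured wild-type library, a ratio of 0.185 (0.0758 to 0.395). In the sham libraries they were 3 cells (0.216%) with the knockout label and 2 cells (0.202%) in the wild type. The C1q-high members did not differ beyond counting error between the injured libraries, with 17 cells (0.644%, 0.376 to 1.03) in the knockout-labelled and 18 cells (0.601%, 0.356 to 0.948) in the wild-type one, a ratio of 1.07 (0.519 to 2.21). The wild-type sham library had 6 of these cells (0.605%, 0.222 to 1.31) and the knockout-labelled sham library 0 of 1392, with an upper bound of 0.265%. Injured over sham was thus 8.11 (2.13 to 68.9) for C1q-low and 0.993 (0.378 to 3.06) for C1q-high members of the wild type. It was 1.41 (0.338 to 8.24) for C1q-low members of the knockout-labelled pair, whose C1q-high members were 17 cells against 0, with a lower limit of 2.18 for the ratio. Relative to cells outside the microglia rule, the C1q-low ratio between the injured libraries was 0.300 (0.123 to 0.639) and the C1q-high ratio 1.74 (0.840 to 3.57). Counting members with Cd209a or Flt3 gave 9 cells against 39, a ratio of 0.262 (0.112 to 0.550), and the intervals hold for these 2 mice only.

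**Figure D3:**
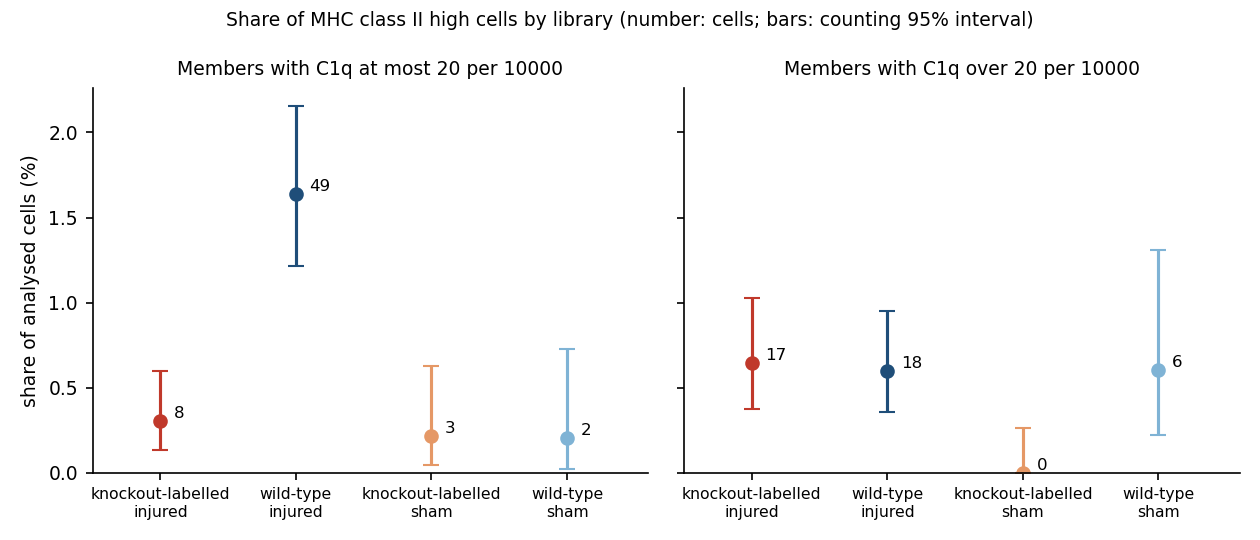
Points give members as a percentage of analysed cells in each library, split at 20 C1q UMIs per 10000, with exact 95% counting intervals as bars and the number of cells beside each point. The injured wild-type library stands at 1.64% in the C1q-low panel, above the other 3 libraries, while both injured libraries and the wild-type sham library lie near 0.6% in the C1q-high panel.

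Gene levels also differed between the injured libraries. In knockout-labelled members, 42 of 3024 genes (1.39%) were at least 2-fold higher than in wild-type members and 69 (2.28%) at least 2-fold lower, with 50 CPM added to both sides. The median log2 ratio over all genes was -0.09. Under median-of-ratios scaling it was -0.01, and the counts were 52 and 50. The macrophage-like clusters held 16 of the 25 knockout-labelled members (64.0%, 42.5 to 82.0) and 19 of the 67 wild-type members (28.4%, 18.0 to 40.7). Of the 42 higher genes, 41 were higher in macrophage-like than in other members, as were 20 of the 69 lower genes. For these and the following counts the share over all 3024 genes is not given here. The clusters came from the same UMIs, so the counts describe an overlap and no cause was tested. With the macrophage-like clusters left out, 9 cells faced 48, and 10 of the 42 higher and 45 of the 69 lower genes stayed at least 2-fold apart, while 6 of the 42 and 0 of the 69 changed direction. Within the macrophage-like clusters, 16 cells faced 19, and 27 and 32 stayed at least 2-fold apart, with 0 and 4 changed in direction. This subset does not hold the mix of cells fixed. The Ccl7-led cluster held 11 of these 16 knockout-labelled and 4 of these 19 wild-type cells. Ccl2, Ccl3, Ccl4, Ccl12, Cxcl2 and Jun are leading genes of that cluster, so the subset cannot separate their levels from cluster membership. In microglia-rule cells of the same libraries 0 of the 42 and 6 of the 69 were 2-fold apart in the same direction.

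The higher genes were led by chemokine and immediate early genes. Ccl2 had 216 UMIs in 11 of 25 knockout-labelled members (1321 CPM) and 21 UMIs in 8 of 67 wild-type members (36.0 CPM), a ratio of 36.7 (23.4 to 60.4). It stayed higher without the macrophage-like clusters (log2 2.49) and within them (4.27), although 1 macrophage-like cell gave 45.4% of the knockout-labelled UMIs. Outside these clusters, the knockout-labelled UMIs of Ccl2 lay in a few cDC2-like cells, with 18, 7 and 1 UMIs, so that ratio rests mostly on 1 cell. In microglia-rule cells of the same libraries the ratio of Ccl2 was 0.844. Ccl3 had 312 UMIs in knockout-labelled and 183 in wild-type members (1908 against 314 CPM, ratio 6.08), and Ccl4 had 578 and 411 UMIs (3534 against 705 CPM, ratio 5.01). Both stayed at least 2-fold higher in each subset. Without the macrophage-like clusters this rested on 9 knockout-labelled cells, with Ccl3 at 215 against 66.3 CPM. Ccl12 had 103 UMIs in knockout-labelled and 16 in wild-type members, but 1 knockout-labelled cell gave 71.8% of its UMIs and its log2 ratio was -0.39 without the macrophage-like clusters. Cxcl2, which attracts neutrophils, was at 3076 against 827 CPM and depended on the macrophage-like clusters in the same way, with a log2 ratio of 0.23 without them. High levels were not particular to the knockout label. The 11 pooled sham members had 1592 CPM of Ccl2, 1796 of Ccl3, 2981 of Ccl4, 994 of Ccl12 and 1988 of Cxcl2. One wild-type sham cell gave 118 of their 141 Ccl2 UMIs.

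Transcription factor genes, some of which respond within minutes to stimulation, made up much of the rest. Jun was at 1810 CPM in knockout-labelled and 401 CPM in wild-type members, Egr1 at 1260 and 321 CPM, Egr3 at 190 and 22.3 CPM and Jund at 1798 and 515 CPM. Klf2, which restrains inflammatory activation, was at 838 and 120 CPM. Of 10 tested genes on a list of transcripts that tissue dissociation can induce, 6 were higher, namely Fos, Jun, Egr1, Ier2, Hspa1a and Dusp1, and 0 lower, with a median log2 ratio of 1.22 against -0.09 over all genes tested. Handling differences between these libraries were not tested. In other cells of the same libraries several of these genes differed in the same direction, but not all of them in every class. Egr1 had a ratio of 1.54 in microglia-rule, 1.71 in border macrophage-rule and 2.22 in the remaining cells, and Jund of 1.59, 1.68 and 2.28 in the same order. Jun had 1.48 in microglia-rule and 2.22 in the remaining cells. For Klf2 the ratios were 1.14 in microglia-rule, 2.09 in border macrophage-rule and 4.02 in the remaining cells. In that order Egr3 had 1.57, 0.636 and 2.20, Fos had 1.00, 1.48 and 1.07, and Dusp1 had 1.00, 1.47 and 0.945. Without the macrophage-like clusters, the log2 ratio in members was 0.99 for Jun, 1.07 for Egr1, 0.51 for Egr3, 1.58 for Jund and 1.41 for Klf2. Of the 6 listed genes, Egr1 and Hspa1a (1.07 each) then stayed at least 2-fold higher, while Fos (0.59), Ier2 (0.59), Dusp1 (0.82) and Jun did not. The tetraspanin gene Cd81 and the proteoglycan gene Sdc4 completed the 12 highest, and Cd81 had a log2 ratio of 0.05 without the macrophage-like clusters.

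**Figure D4:**
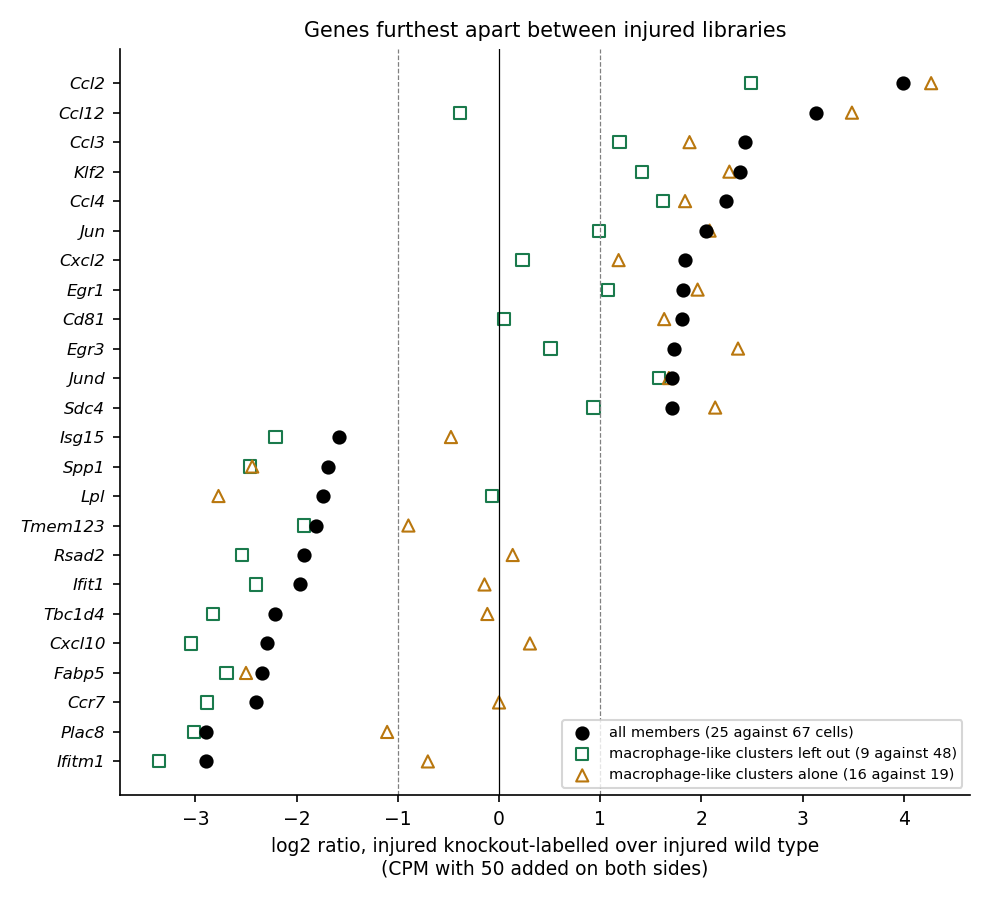
Log2 ratios of injured knockout-labelled over injured wild-type members (x axis, CPM with 50 added) for the 12 genes furthest apart in each direction. Black circles use all members, green squares leave out the macrophage-like clusters and orange triangles use these alone, and dashed lines mark 2-fold. Ccr7, Ifit1 and Cxcl10 lie near 0 among the triangles and far to the left among the squares, and Ccl12 is on the left among the squares only.

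The lower genes were led by genes of the Ifitm1, Ccr7 and Cxcl10 clusters, in which the knockout-labelled library had 1, 0 and 0 cells. Ifitm1 had 0 UMIs in knockout-labelled members and 188 UMIs in 22 of 67 wild-type members (322 CPM), with an exact upper limit of 0.0706 for the ratio. Ccr7 had 0 UMIs in knockout-labelled and 125 in 9 wild-type members, with an upper limit of 0.107, and Ifit1 had 0 and 85 UMIs, with an upper limit of 0.158. Plac8 had 2 UMIs in 1 knockout-labelled member and 240 UMIs in 21 wild-type members (12.2 against 412 CPM, ratio 0.0297, interval 0.00358 to 0.108). Tbc1d4, a regulator of vesicle traffic, had 1 UMI against 122, and Tmem123, a gene of mature dendritic cells, 3 against 110. The interferon-induced genes Cxcl10 (79.5 against 583 CPM), Rsad2 (6.11 against 163 CPM) and Isg15 (85.6 against 355 CPM) were lower too, and 1 cell gave 49.7% of the wild-type Cxcl10 UMIs.

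Other lower genes were high in the Spp1-led macrophage-like cluster or differed in other cells as well. Spp1 had 150 UMIs in 5 knockout-labelled members and 1784 UMIs in 45 wild-type members (917 against 3060 CPM, ratio 0.300, interval 0.252 to 0.354), but 1 cell gave 88.0% of the knockout-labelled UMIs and another 57.0% of the wild-type UMIs. With each cell weighted equally, the log2 ratio of Spp1 was 1.26 in place of -1.69. Spp1 was also found in 24.8% of the endothelial cells, and its ratio in microglia-rule cells of the same libraries was 0.0972. Lpl, at 36.7 against 240 CPM, was lower within the macrophage-like clusters (log2 -2.77) and near equal without them (-0.07). The fatty acid carrier gene Fabp5, at 30.6 against 359 CPM, was lower in both subsets (-2.50 within, -2.69 without), and its ratio in microglia-rule cells was 0.147. Fabp5 is also a leading gene of the Ccr7 cluster, at 2632 CPM against 181 CPM in the other members. That cluster held 0 knockout-labelled cells, so the value without the macrophage-like clusters cannot separate the level of Fabp5 from cluster membership. What free RNA adds to either gene in members was not tested.

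The list counts below stand against 1.39% of all 3024 genes at least 2-fold higher and 2.28% lower in knockout-labelled members. Most presentation genes were within 2-fold between the injured libraries, with a median log2 ratio of 0.04. Of 11 tested outside the rule, 0 were 2-fold higher and 2 lower in knockout-labelled members, H2-Oa (116 against 283 CPM) and Ifi30 (599 against 1420 CPM). H2-Aa, part of the selection, was at 13782 against 13910 CPM. Of 14 interferon response genes 0 were higher and 4 lower, which were Ifit1, Ifit3, Isg15 and Rsad2. Of 10 chemokine genes 5 were higher, namely Ccl2, Ccl3, Ccl4, Ccl12 and Cxcl2, and 2 lower, Cxcl10 and Ccl22. Ccl22, which attracts regulatory T cells, had 1 UMI in knockout-labelled and 53 UMIs in wild-type members. Ccl17, which shares its receptor Ccr4, had 32 and 4 UMIs the other way, of which 1 knockout-labelled cell gave 29, and it was found in too few cells to be counted. The macrophage marker list had 4 of 10 genes higher and 0 lower, with C1qa at 3271 against 1009 CPM and a summed level per cell of 6.49 to 2121 per 10000 in knockout-labelled and 7.65 to 1366 per 10000 in wild-type members. Cd209a was at 929 CPM in knockout-labelled and 521 CPM in wild-type members, although it was found in 8 of 25 and 33 of 67 of them. Thinned to 2000 UMIs per cell, the shares with Cd209a were 31.7% and 35.2%.

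**Figure D5:**
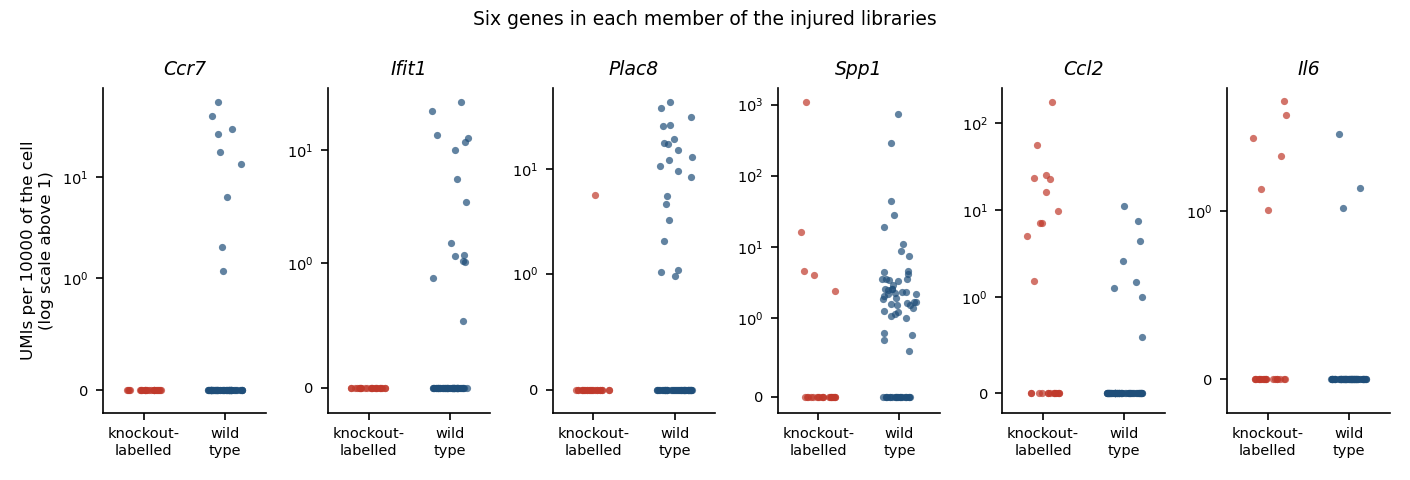
Each point is a member of an injured library, knockout-labelled on the left and wild type on the right of each panel, with its UMIs of the gene per 10000 on the y axis (log scale above 1). Ccr7 and Ifit1 have no knockout-labelled cell above 0, Plac8 has 1, and Ccl2 and Il6 are found in a larger share of knockout-labelled cells.

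Il6, the gene named in the genotype label, was present in members of both knockout-labelled libraries. It had 15 UMIs in 6 of 25 members of the injured knockout-labelled library (91.7 CPM, 51.3 to 151), 7 UMIs in 3 of 67 of the injured wild type (12.0 CPM, 4.83 to 24.7), 6 UMIs in 2 of 3 of the knockout-labelled sham and 0 UMIs in 8 members of the wild-type sham library. Over all analysed cells Il6 was at 21.9, 4.47, 26.4 and 10.5 CPM in the same order of libraries. Of the 11 members with Il6, 8 were in the cDC2-like cluster, which is 32.0% of its 25 cells. Thinned to 2000 UMIs, the share with Il6 was 11.5% in the injured knockout-labelled and 1.49% in the injured wild-type library. Il6 was also found in 10.4% of the endothelial cells. The receptor subunit gene Il6ra was found in 44 members, at 104 CPM in the injured knockout-labelled and 68.6 CPM in the injured wild type. The signalling subunit gene Il6st was found in 18.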

How the data were processed

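CD11b-positive brain cells of 4 mice, 1 per group, were sequenced with 10x 3′ v3 chemistry. Values are the authors' deposited UMI counts, not normalized. Per the file headers and the submitters' processing notes, Cell Ranger 6.0.1 and the mm10 build were used. A barcode was analysed if it had 500 or more genes, 1000 or more UMIs and no more than 10% of UMIs from mitochondrial genes, and predicted doublets were kept. Members were clustered alone with scanpy 1.11.5 (1000 variable genes without cycling, mitochondrial, ribosomal, haemoglobin and sex-linked genes, 15 components, 10 neighbours, Leiden resolution 1, seed 0). A cluster was named when at least 2 of its 10 leading genes were markers of 1 class and none of another, with at least 3 markers detected in 25% of its cells. Border and other macrophage markers counted together, and this rule was set after the clusters were seen.

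UMIs were summed per set of cells and given as CPM, with exact Poisson intervals for levels, exact conditional binomial intervals for ratios and exact Clopper-Pearson intervals for shares, at 95%. With 1 library per group no test was run. Genes compared between injured libraries needed at least 30 UMIs and 5 cells with a UMI in the higher library, those compared with other cells at least 50 UMIs. Genes were named by rule, as the 12 furthest apart each way between injured libraries, the 20 leading genes against other cells, the 10 leading genes of each cluster and genes of 29 fixed lists. Exceptions are marked. The list gene Clec7a was not analysed here. The members and lists were chosen with earlier results of these data known. Simulated data with known changes were used to check the comparison. Alternatives are given in the closing section.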

Additional observations from a re-analysis of the deposited data

How the results depend on the processing

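Leaving out members with any microglia gene detected gave shares of 0.455% in the injured knockout-labelled library, 1.60% in the injured wild type and 0.823% over all libraries, and 27 higher genes between the injured libraries. A stricter cell filter gave 2.87% in the injured wild type and 1.76% over all libraries. A prior of 10 CPM gave 83 higher and 221 lower genes between the injured libraries, keeping only the dendritic-like named clusters (7 against 17 cells) gave 14 and 44, and leaving out the macrophage-like clusters gave 23 and 106. Against other cells, a prior of 50 CPM gave 181 higher and 233 lower genes, and 733 were lower without the injured wild-type library. Leaving out the border and microglia steps, an alternative chosen after seeing the data, gave shares of 1.59% and 2.74% in the injured knockout-labelled and wild-type libraries, 0.718% and 1.71% in the sham ones and 1.88% over all. Resolution 0.5 gave 4 clusters, 2 of them macrophage-like and 2 of 33 and 29 cells unnamed. Resolution 1.5 gave 8, with 19 cDC2-like, 7 migratory mature dendritic-cell-like and 3 nonclassical monocyte-like cells. The macrophage-like share was 39.8% at both.

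Of 312 values of the 24 named genes under alternatives, 87 moved beyond counting error without a change of sign and 8 changed sign. The 8 were Cxcl2 (-2.21) without cells holding a microglia gene, Spp1 (1.26) with cells weighted equally, Ccl12 (-0.19), Cd81 (-0.84) and Cxcl10 (0.46) in the dendritic-like named clusters, Ccl12 (-0.39) without and Cxcl10 (0.31) and Rsad2 (0.13) within the macrophage-like clusters. The causes were not tested. The alternatives on macrophage-like clusters were chosen after seeing the data. Scrublet would leave out 2 members, both macrophage-like. No paired analysis was possible because each group has 1 sample. With 25 and 67 members, genes of few UMIs were not resolved, and 1 cell gave over 50% of the UMIs of 1 of the 42 higher and 5 of the 69 lower genes.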

Other observations

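The steps of the selection removed different cells in sham and injured libraries. At least 150 class II UMIs per 10000 were reached by 42 cells of the injured knockout-labelled, 82 of the injured wild-type, 10 of the knockout-labelled sham and 17 of the wild-type sham library. The step on border macrophage genes removed 4, 1, 6 and 6 of these cells, and the step on microglia genes removed 13, 14, 1 and 3. Class II high cells with 3 or more border genes were thus 5 of 124 in the injured libraries, against 12 of 27 in the sham ones. Of the members kept, 16 had 2 border genes and 37 had 1 microglia gene.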
